A study of Homo sapiens with 6 samples.

Results

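The G1 cyclins and cyclin-dependent kinases are the genes whose products carry a cell from G1 into S phase. They were examined as a set of 10 genes chosen by symbol, out of 60676 genes in the count table. The set holds the D cyclins CCND1, CCND2 and CCND3, the E cyclins CCNE1 and CCNE2, the kinases CDK2, CDK4 and CDK6, and the inhibitors CDKN1B (p27) and CDKN2C (p18). The choice was made by symbol, with earlier results of these data known.

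As background, the D cyclins are made in response to growth factor signals and bind CDK4 or CDK6, and these complexes begin the phosphorylation of the retinoblastoma protein RB1. Phosphorylated RB1 lets go of the E2F transcription factors, which drive genes of DNA synthesis and the E cyclins, and cyclin E with CDK2 then completes the step into S phase. CDKN2C belongs to the INK4 inhibitors, which bind CDK4 and CDK6, while CDKN1B belongs to the CIP/KIP family and holds cyclin E-CDK2 in check.

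The libraries came from TC71, a Ewing sarcoma line, stably transduced with a lentivirus that expresses an shRNA when Dox (doxycycline) is added. The 3 control libraries carried a non-targeting shRNA (shNTC+Dox) and the other 3 an shRNA against EHD1, a gene of endocytic recycling (shEHD1+Dox). Both groups had 0.5 µg/ml Dox for 3 days, so both carry a viral construct and the drug, and cells without Dox were not analysed here. The cells were puromycin-selected pools of 1 cell line, and the sources used here do not say which of the study's EHD1 shRNAs these samples carried or whether replicates were separate cultures, so p-values measure the spread between these libraries. The total count ran from 22711235 to 30582187 per library, and the 10 genes together took 0.161 to 0.208% of it. EHD1, the target, was at 27.1, 28.0 and 26.4 CPM (counts scaled to library size by TMM) in the control libraries, against 7.55, 7.15 and 9.37 CPM with shEHD1+Dox. All 8 Ewing sarcoma markers examined, such as NKX2-2, STEAP1 and CD99, were present, at 7.80 to 610 CPM, and 7 of 10 markers of other cell types (MYOD1, MYOG, PTPRC, EPCAM, CDH1, PECAM1 and CDH5) had at most 11 counts in any library. The other 3 were KRT8 and LUM, neither of which passed the test, and DCN, a fibroblast proteoglycan that fell from 4.85 to 2.40 CPM. The part of DCN-expressing cells in the results was not tested. Control library shNTC+Dox replicate 3 stood apart from the others of its group, with a chi-square per degree of freedom over genes of 25.7 and 27.2 against them, where they differed from each other by 5.56. It had the highest level of all 6 libraries for 7 of the 10 genes (CCND1, CCNE1, CCNE2, CDK2, CDK4, CDK6 and CDKN2C). Without it, 4 of the genes fell and 1 rose, and CDK6 was not called. Within shEHD1+Dox, replicate 2 differed from replicates 1 and 3 by 18.1 and 16.9 on the same measure, where those differed from each other by 7.60.

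Most of the set was lower in shEHD1+Dox, with CDKN1B as the exception. CCND3, CCNE2, CDK2, CDK6 and CDKN2C fell, to between 36.6% and 71.1% of the shNTC+Dox level, while CDKN1B rose to 125%. CCND1, CCNE1 and CDK4 did not pass the test, and CCND2 had no count. Thus, 9 of the 10 genes passed the low-count filter (10 counts or more in 3 or more libraries), and of these 5 fell and 1 rose at an adjusted p under 0.05 by edgeR's quasi-likelihood test, adjusted over all 16785 genes tested. Over all genes tested, 8.75% fell and 8.59% rose by the same rule. CCNE2 and CDK6 fell by at least 2-fold, as did 1.74% of all genes tested. The groups of libraries did not overlap for 8 of the 9 genes, where 39.3% of all genes tested had no overlap. The median log2 fold change of the 9 genes was -0.49, beside 0.0008 over all genes tested. The exact two-sided permutation test over 3 against 3 libraries cannot give a p below 0.1, which it gave for each of those 8 genes, and it gave 0.5 for CCNE1. In bulk RNA, fewer cells in a given phase of the cycle and less RNA per cell cannot be told apart.

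**Figure D1:**
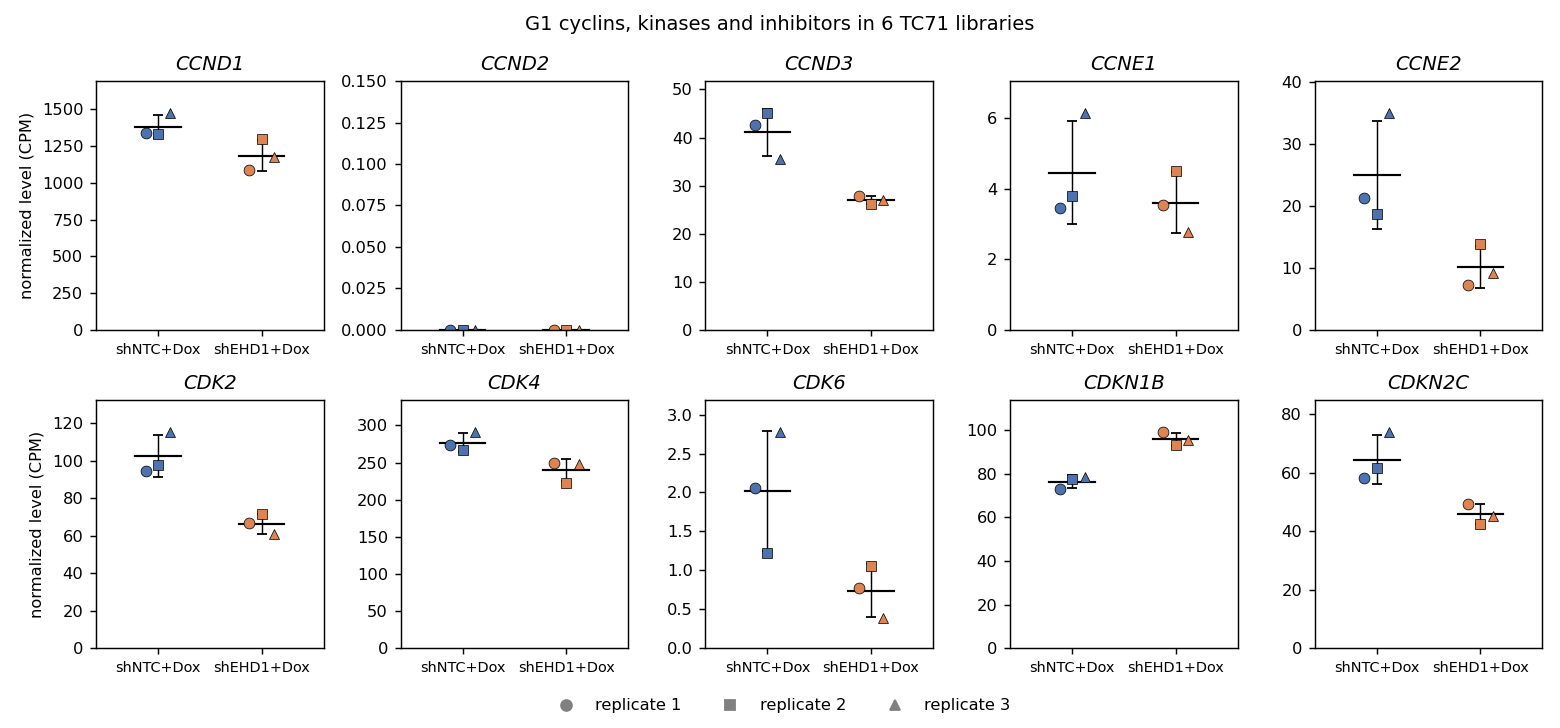
Level of each gene in each library, in TMM-normalized CPM on a linear axis of its own from 0, with the 3 libraries of each group as points (shape gives the replicate), the group mean as a line and the SD as a bar. CCND1 lies at 1086 to 1472 CPM and CDK6 at 0.388 to 2.78 CPM, the groups overlap only for CCNE1, and CDKN1B is the only gene whose shEHD1+Dox points lie above the shNTC+Dox points.

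**Figure D2:**
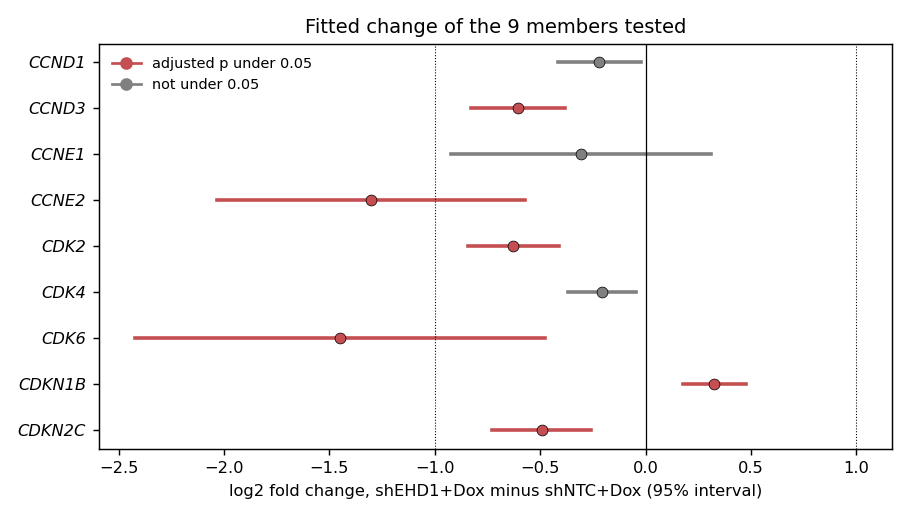
Log2 fold change of shEHD1+Dox against shNTC+Dox for the 9 genes tested, with the 95% interval of the edgeR fit as a bar. The 6 genes at an adjusted p under 0.05 are red and the others grey, dotted lines mark a 2-fold change, and the intervals of the low-count genes CDK6, CCNE2 and CCNE1 are the widest.

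The levels of the genes covered a wide range, so they were ordered per length, as CPM per kilobase of the canonical transcript. In shNTC+Dox the order was CCND1 (326), CDK4 (148), CDKN2C (64.8), CDK2 (45.8), CDKN1B (31.7), CCND3 (20.3), CCNE2 (9.32), CCNE1 (2.28), CDK6 (0.173) and CCND2 (0). No neighbours in this order had overlapping ranges over the 3 libraries. In shEHD1+Dox, CDKN1B (39.7, range 38.5 to 41.1) stood above CDK2 (29.7, range 27.3 to 31.9), the reverse of their order in shNTC+Dox, and the other genes kept their places. This exchange depended on the length used. Per kilobase of all annotated exons, CDK2 stayed above CDKN1B in both groups (26.4 and 8.25 in shNTC+Dox, 17.1 and 10.3 in shEHD1+Dox), and CDK2 overlapped CDKN2C.

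CCND1 (ENSG00000110092, chromosome 11 from 69641156 to 69654474 in GRCh38, plus strand) was by far the most abundant D cyclin. It was at 1338, 1334 and 1472 CPM in shNTC+Dox and at 1086, 1299 and 1174 CPM in shEHD1+Dox. Every shEHD1+Dox library was below every shNTC+Dox library, with a narrow gap between the nearest of them. The log2 fold change was -0.22 (standard error 0.087, 95% interval -0.42 to -0.02), and the edgeR adjusted p of 0.117 did not pass. It passed by the DESeq2 Wald test (adjusted p = 0.0492) and, by edgeR, without shEHD1+Dox replicate 2 (adjusted p = 0.0466), the highest library of its group. The exons of CCND1 share 497 bases with LTO1 on the opposite strand, and the 2 genes summed gave -0.23.

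CCND3 (ENSG00000112576, chromosome 6 from 41934934 to 42050357, minus strand), the second D cyclin of these cells, fell. Its levels were 42.7, 45.001 and 35.6 CPM in shNTC+Dox and 27.7, 26.2 and 27.1 CPM in shEHD1+Dox. The shEHD1+Dox libraries lay close together and well below the lowest shNTC+Dox library. The group means were 41.1 ± 4.93 and 27.02 ± 0.752 CPM (SD, n = 3 each), and the log2 fold change was -0.61 (standard error 0.098, 95% interval -0.83 to -0.38, edgeR adjusted p = 0.00452). The call held in all 13 alternative fits, at log2 fold changes of -0.70 to -0.54, and was lost where a 2-fold change was required.

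CCND2 (ENSG00000118971, chromosome 12 from 4269771 to 4305353, plus strand) had 0 counts in all 6 libraries. At these depths 3 counts, the upper limit that a count of 0 allows, correspond to 0.0968 to 0.134 CPM per library, counting error only. CCND1 therefore made up nearly all D cyclin RNA, with a share of the per-length sum of 94.1 ± 0.948% under shNTC and 95.4 ± 0.511% under shEHD1 (SD, n = 3 for both). These shares overlapped between the groups (exact permutation p = 0.2), so a change in the balance of CCND1 and CCND3 was not shown.

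Among the E cyclins, CCNE2 fell while CCNE1 did not pass the test. CCNE2 (ENSG00000175305, chromosome 8 from 94879770 to 94896678, minus strand) was at 21.2, 18.7 and 34.9 CPM in shNTC+Dox and at 7.23, 13.9 and 9.24 CPM in shEHD1+Dox. All shEHD1+Dox libraries were lower, although both groups were spread widely and shNTC+Dox replicate 3 stood high. The log2 fold change was -1.30 (standard error 0.31, 95% interval -2.03 to -0.57, edgeR adjusted p = 0.0307), with means of 24.9 ± 8.71 and 10.1 ± 3.40 CPM (SD, n = 3 each). Without shNTC+Dox replicate 3 it was -0.99 (edgeR adjusted p = 0.0437). The call was lost without the filter on low counts (adjusted p = 0.0680) and without shNTC+Dox replicate 1, shEHD1+Dox replicate 1 or shEHD1+Dox replicate 3 (adjusted p = 0.0540, 0.0822 and 0.1002).

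The exons of CCNE2 share 1629 of 4397 bases with INTS8, a subunit of the Integrator complex on the opposite strand. The library kit does not mark strand, so reads from the shared stretch cannot be assigned by strand. INTS8 itself fell by 0.37 on the log2 scale, with means of 121 and 93.8 CPM (edgeR adjusted p = 0.00697). Summed with the genes it overlaps, CCNE2 gave -0.49 (edgeR adjusted p = 0.00554), a sum in which INTS8 has most of the reads.

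CCNE1 (ENSG00000105173, chromosome 19 from 29811991 to 29824312, plus strand) was at 3.46, 3.79 and 6.13 CPM in shNTC+Dox and at 3.55, 4.50 and 2.78 CPM in shEHD1+Dox. The groups overlapped. Its log2 fold change of -0.31 had a 95% interval of -0.92 to 0.31 (edgeR adjusted p = 0.481), so at 86 to 137 counts per library neither a fall nor a rise within that interval was distinguishable from no difference. It depended on which library was left out, at -0.46 and -0.01 without shNTC+Dox replicates 1 and 3, and at -0.49 and -0.15 without shEHD1+Dox replicates 2 and 3.

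The balance of the E cyclins differed between the groups in every library. CCNE2 took 81.8, 78.3 and 80.6% of the per-length sum of CCNE1 and CCNE2 in shNTC+Dox, against 59.9, 69.3 and 70.9% in shEHD1+Dox. Hence CCNE1 went from 19.8 ± 1.80% to 33.4 ± 5.94% of E cyclin RNA (SD, n = 3 each). The log2 ratio of CCNE1 to CCNE2 counts was higher by 1.01 in shEHD1+Dox. The exact permutation p was 0.1, the smallest possible, and 0.171 after adjustment over the 12 ratios and shares computed. No difference could pass with 3 against 3 libraries, so the test cannot decide.

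Of the kinases, CDK2 and CDK6 fell and CDK4 did not pass the test. CDK2 (ENSG00000123374, chromosome 12 from 55966781 to 55972789, plus strand), the partner of the E cyclins, was at 94.5, 98.0 and 115 CPM in shNTC+Dox and at 66.6, 71.5 and 61.1 CPM in shEHD1+Dox. The gap between the groups was wider than the spread within either. The mean went from 103 ± 11.2 to 66.4 ± 5.18 CPM (SD, n = 3 each), and the log2 fold change was -0.63 (95% interval -0.84 to -0.41, edgeR adjusted p = 0.00345). The call held in all 13 alternative fits, at an edgeR or DESeq2 adjusted p of at most 0.0217, but not where a 2-fold change was required. The sum with the genes on the opposite strand whose exons overlap it was among them.

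CDK4 (ENSG00000135446, chromosome 12 from 57747727 to 57756013, minus strand) was the most abundant kinase of the set. It was at 273, 267 and 291 CPM in shNTC+Dox and at 249, 223 and 248 CPM in shEHD1+Dox, without overlap. The 95% interval of its log2 fold change ran from -0.37 to -0.04, and it was not called by edgeR (adjusted p = 0.0796) but was called by DESeq2 (adjusted p = 0.0346). Of its exons, 44.2% of bases are shared with TSPAN31, a tetraspanin gene on the opposite strand, which did not pass the test (0.34 on the log2 scale, edgeR adjusted p = 0.111).

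The other partner of the D cyclins, CDK6 (ENSG00000105810 on the minus strand of chromosome 7, at 92604921 to 92836573), had only 54, 34 and 62 counts in the control libraries against 22, 26 and 12 with shEHD1+Dox. This was 2.05, 1.23 and 2.78 CPM against 0.773, 1.06 and 0.388 CPM. The closest libraries of the groups differed little. The log2 fold change was -1.45 with a 95% interval of -2.42 to -0.48 (edgeR adjusted p = 0.0486). The call held only without shNTC+Dox replicate 2 among the 6 fits that left out a library, and the adjusted p reached 0.142.

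Among the kinases, CDK2 lost share to CDK4. CDK2 took 22.4, 23.4 and 24.8% of the per-length sum of the kinases in shNTC+Dox, against 18.2, 21.1 and 17.03% in shEHD1+Dox. The share of CDK4 went from 76.4 ± 1.23% to 81.2 ± 2.09% (SD, n = 3 each). CDK6 held 0.0880 ± 0.0294% and 0.0405 ± 0.0197%, so nearly all RNA of the D cyclin partners was that of CDK4 in both groups. The log2 ratio of CDK2 to CDK4 fell by 0.42 without overlap of the groups. For this ratio and the share of CDK2 the exact permutation p was 0.1 (adjusted p = 0.171). That is the smallest p possible, so the test cannot decide.

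**Figure D3:**
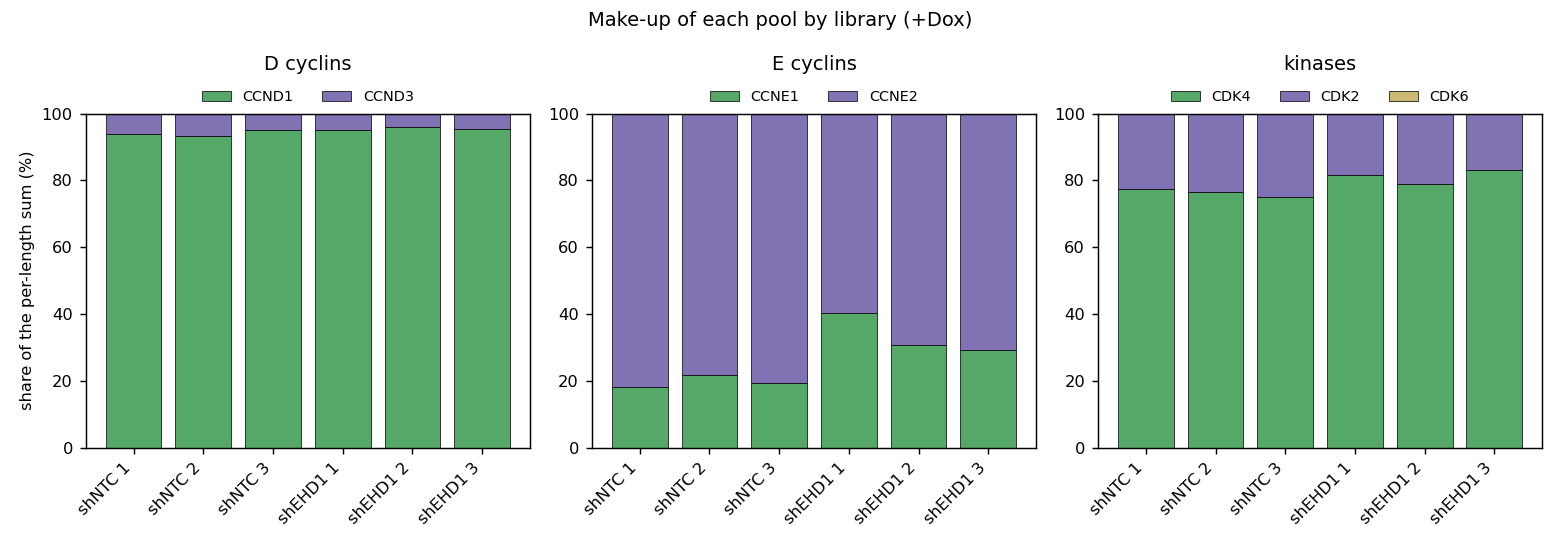
Share of each gene in the per-length sum of the D cyclins, the E cyclins and the kinases, in percent, as stacked bars for each of the 6 libraries. CCND1 and CDK4 dominate their pools in both groups, and CCNE1 takes 18.2 to 21.8% of the E cyclins in shNTC+Dox against 29.2 to 40.2% in shEHD1+Dox.

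The inhibitors moved in opposite directions. CDKN1B (ENSG00000111276, chromosome 12 from 12685498 to 12722369, plus strand) was at 72.8, 77.7 and 78.4 CPM in shNTC+Dox and at 98.997, 92.9 and 95.2 CPM in shEHD1+Dox. All shEHD1+Dox libraries were higher, and both groups were narrow. It rose from 76.3 ± 3.04 to 95.7 ± 3.08 CPM (SD, n = 3 each), by 0.33 on the log2 scale (standard error 0.066, 95% interval 0.18 to 0.48, edgeR adjusted p = 0.0116). The call was lost without shNTC+Dox replicate 1 or shEHD1+Dox replicate 1 (adjusted p = 0.0557 and 0.0616).

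CDKN2C (ENSG00000123080, chromosome 1 from 50960745 to 50974634, plus strand) was at 58.1, 61.4 and 73.9 CPM in shNTC+Dox and at 49.4, 42.6 and 45.4 CPM in shEHD1+Dox. Again the groups did not overlap. It fell from 64.5 ± 8.30 to 45.8 ± 3.43 CPM (SD, n = 3 each), and its log2 fold change was -0.49 (standard error 0.10, 95% interval -0.73 to -0.26, edgeR adjusted p = 0.0136). The call was lost without shEHD1+Dox replicate 2 or 3 (adjusted p = 0.0536 and 0.0565). Of its exons, 20.4% of bases overlap a gene on the opposite strand that the count table does not list.

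Within each library, the log2 ratio of CDKN1B to CDKN2C counts was 0.33, 0.34 and 0.09 in the control libraries against 1.00, 1.13 and 1.07 with shEHD1+Dox. This ratio, which does not depend on scaling between libraries, was higher by 0.82 in shEHD1+Dox. The exact permutation p was 0.1, again the smallest possible (adjusted p = 0.171), so the test cannot decide here either. Of the 12 ratios and shares, 7 did not overlap between the groups. These came only from the E cyclins, from CDK2 and CDK4, and from the pair of inhibitors. The shares within a pool sum to 100, and the ratios of CCNE1 to CCNE2 and of CDK2 to CDK4 largely restate them. The 7 are therefore not independent of each other.

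The promoters were searched for short DNA words to see what the genes that moved share at their starts. RefSeq promoter sequences (GRCh38.p14, 250 bases before to 50 after a start) matched 6 of the 10 genes, with 11 starts. CCND1, CCND2, CCNE2 and CDK2 had no entry. The GC box GGGCGG, a word bound by SP family factors, was found on either strand in 8 of the 11, and in 44.9% of all 34943 promoters. In promoters of the tested genes alone the share was 64.7% of 15824. For the 4 genes with a passed test and a RefSeq entry, 30 bases around a GC box are shown, taking the box closest to the canonical start whose 30 bases all lie before that start, in the direction of the gene, with the box in capitals (CCGCCC where it lies on the opposite strand).
CCND3, chr6:41941861-41941890, minus strand: ggcgccgcagccCCGCCCctcggagcgttg
CDK6, chr7:92836618-92836647, minus strand: tccgccgtccctCCGCCCtccgccgctgtg
CDKN1B, chr12:12717285-12717314, plus strand: ccagcctcggcgGGGCGGctcccgccgccg
CDKN2C, chr1:50970179-50970208, plus strand: gtgtgaatcgagGGGCGGgcttttggcagg

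The boxes shown begin at -70, -62, -71 and -54 from the start, in that order. CCND3 has a closer box at -13, whose 30 bases run past the start. A GC box stood before the canonical start of all 6 genes with an entry, CCNE1 and CDK4 included, which did not pass the test. The E2F words TTTCCCGC, TTTCGCGC, TTTGCCGC and TTTGGCGC were in none of the 6 genes' promoters and in 3.3% of all promoters. The words TGACGTCA (CRE) and TTTGAA (CHR) were also in none, where 1.84% and 15.2% of all promoters held them. The shorter TGACG was in promoters of CDK6, CDKN1B and CDKN2C, counting any start of a gene, and in 24.5% of all promoters. In promoters of the tested genes alone, the E2F, CRE, CHR and TGACG words were in 4.8, 2.72, 10.7 and 31.5%. A match is a description of the letters, and the absence of a word says only that these letters are not in these windows.

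The other inhibitors of the pathway gave no call by edgeR. Of 6 listed, 4 were tested, and none rose or fell by edgeR, with a median log2 fold change of 0.42. At an unadjusted p under 0.05 there were 2, both higher, and the DESeq2 Wald test called 1. CDKN1A (p21), the p53-responsive inhibitor, had a log2 fold change of 0.54, and CDKN1C, CDKN3 and CDKN2D had 0.97, 0.30 and 0.03. CDKN2A, the INK4 gene often lost in tumors, had at most 5 counts in a library, and its neighbor CDKN2B at most 12.

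Among regulators of CDK activity, both directions were seen. Of 8 genes that activate CDKs or set their inhibitory phosphorylation, 2 fell and 1 rose. CDC25A and CDC25B, phosphatases that remove inhibitory phosphates from CDKs, fell by 0.93 and 0.45 on the log2 scale (edgeR adjusted p = 0.0107 and 0.00431), and CDK7, the kinase of the CDK-activating complex, rose by 0.38 (adjusted p = 0.0373). Of 12 parts of the ubiquitin ligases that remove cyclins and p27, 1 fell and 2 rose. By the same rule, 8.75% of all genes tested fell and 8.59% rose. A call of 1 or 2 genes in lists this small is not a result about the list. SKP2, the F-box protein that targets p27, fell by 0.33 (edgeR adjusted p = 0.0379), and FBXW7, which targets cyclin E, rose by 0.36 (adjusted p = 0.0277), as did the cullin gene CUL4B by 0.33 (adjusted p = 0.0168). The rise of CDK7 was lost at least without shNTC+Dox replicate 1 or 2 or shEHD1+Dox replicate 1 or 2. SKP2 lost its fall at least without shNTC+Dox replicate 1 or 2 or shEHD1+Dox replicate 1 or 3. The ubiquitin list had no rise without shNTC+Dox replicate 1, shEHD1+Dox replicate 1 or shEHD1+Dox replicate 3, and 1 when shEHD1+Dox replicate 2 was left out.

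The substrates and the factors they bind also divided. E2F1, E2F2 and RBL1 (p107) fell by 1.09, 1.08 and 0.62 on the log2 scale (edgeR adjusted p = 0.00582, 0.0151 and 0.0132). RB1 and RBL2 (p130) rose by 0.42 and 0.47 (edgeR adjusted p = 0.00515 and 0.00742). E2F3 had a log2 fold change of -0.27 and missed the threshold. When shEHD1+Dox replicate 3 was left out, 1 of these genes fell.

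Among cyclins of later phases the calls were rises. Of 7 S and M phase cyclins and CDK1, 3 rose and none fell by edgeR, with 4 higher and 0 lower at an unadjusted p under 0.05 and 0 lower by DESeq2. Only 1 rose without shNTC+Dox replicate 1 or 2 or shEHD1+Dox replicate 1 or 3. CCNB1 and CCNB2, the mitotic B cyclins, each rose by 0.38 (edgeR adjusted p = 0.0151 and 0.0209), and CCNA1 rose by 1.12 (adjusted p = 0.00264). Of 28 other cyclins and CDKs, 6 fell and 3 rose, with a median log2 fold change of 0.04. Since 8.75% of all genes tested fell and 8.59% rose, the 3 rises lie near that share. The largest falls were those of CDK3, CDK16 and CCNL1, by 1.34, 0.83 and 0.82 on the log2 scale, and the rises those of CDK8, CCNI and CCNK, by 0.63, 0.38 and 0.35. Without shEHD1+Dox replicate 1, 3 of this list fell.

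**Figure D4:**
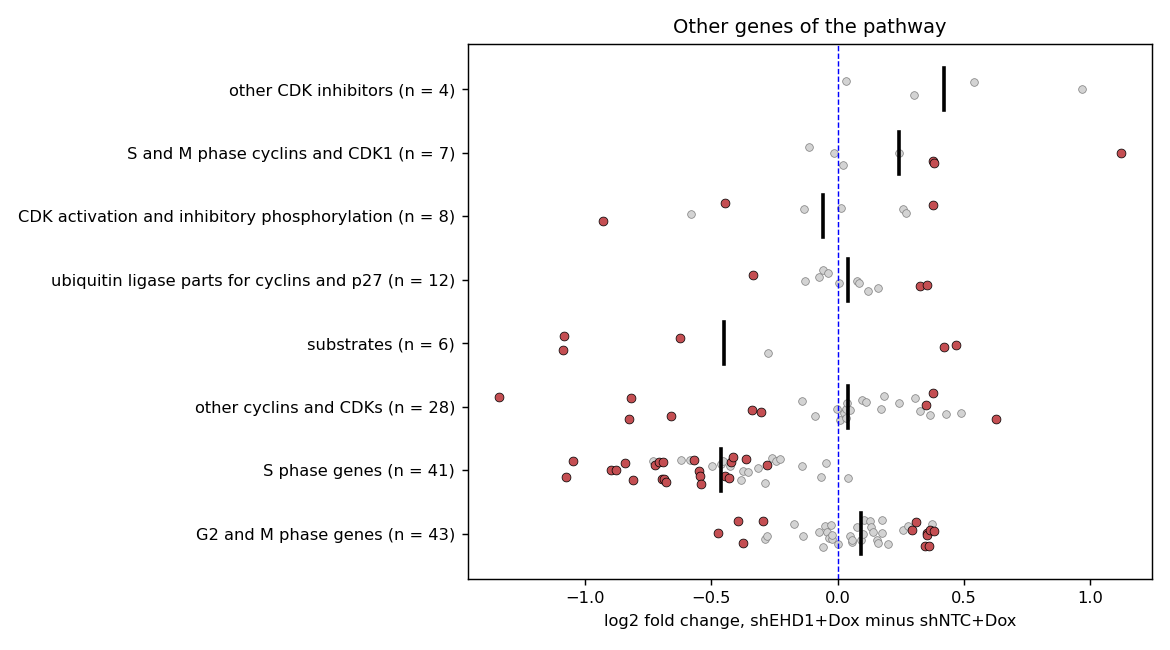
Log2 fold changes of the genes tested in each list of the pathway, 1 point a gene, red at an edgeR adjusted p under 0.05 and grey otherwise, with the median of each list as a black bar. The S phase genes lie almost all below 0, with a median of -0.46, while the G2 and M phase genes are centred near 0.09.

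Genes used to mark S phase were lower together with these members. Of 41 S phase genes, 40 had a log2 fold change below 0, 22 fell and none rose by edgeR, with a median of -0.46. At an unadjusted p under 0.05, 34 were lower and 0 higher, and DESeq2 called 31 lower and 0 higher. Without shNTC+Dox replicate 3, the control library that stood apart, 17 fell. PCNA, the sliding clamp of DNA polymerase, fell by 1.05, UHRF1, which maintains DNA methylation at replication, by 1.08, and the nuclease gene EXO1 by 0.90 (edgeR adjusted p = 0.00444, 0.0483 and 0.0113). Without shEHD1+Dox replicate 1 or 3, the number that fell was 6 and 5, and without shEHD1+Dox replicate 2 it was 28. Of 43 G2 and M phase genes, 4 fell and 8 rose, with a median of 0.09. Since 8.75% of all genes tested fell and 8.59% rose, the 4 falls lie near that share. ANP32E, a histone chaperone gene, NUSAP1, a spindle gene, and TMPO, a nuclear envelope gene, fell by 0.47, 0.39 and 0.38 on the log2 scale (edgeR adjusted p = 0.0142, 0.0130 and 0.0283). NEK2, a centrosome kinase, NCAPD2, a condensin subunit, and PSRC1, a spindle gene, rose by 0.38, 0.36 and 0.36 (edgeR adjusted p = 0.0259, 0.0121 and 0.0357). Without a library, the number that rose ran from 0 (shEHD1+Dox replicate 1) to 13 (shNTC+Dox replicate 3), and was 3 without shNTC+Dox replicate 1 or 2 or shEHD1+Dox replicate 3. Leaving out shEHD1+Dox replicate 1 or 3 brought the number that fell to 1 and 0.

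The summed level of the S phase genes was 4662, 4517 and 5993 CPM in shNTC+Dox, against 3235, 4141 and 3400 CPM in shEHD1+Dox. CCND1 and CCNE2 had the same order of the 6 libraries as this sum, from shNTC+Dox replicate 3 at the top to shEHD1+Dox replicate 1 at the bottom. Other members did not, and CCND3, CDK4 and CDKN2C were lowest in shEHD1+Dox replicate 2, where the sum was the highest of its group. CDKN1B was highest in shEHD1+Dox replicate 1, where the sum was lowest, but within shNTC+Dox it was highest in replicate 3, where the sum was highest. The points share libraries and scaling, and these genes were picked for this comparison after their values were seen. E2F drives the E cyclins as well as genes of DNA synthesis, so the shared order of CCNE2 is not an independent observation. The summed level of the G2 and M phase genes overlapped between the groups, at 7835 to 8636 CPM and 7965 to 8562 CPM. The part of the S phase level in the results for these genes was not tested.

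**Figure D5:**
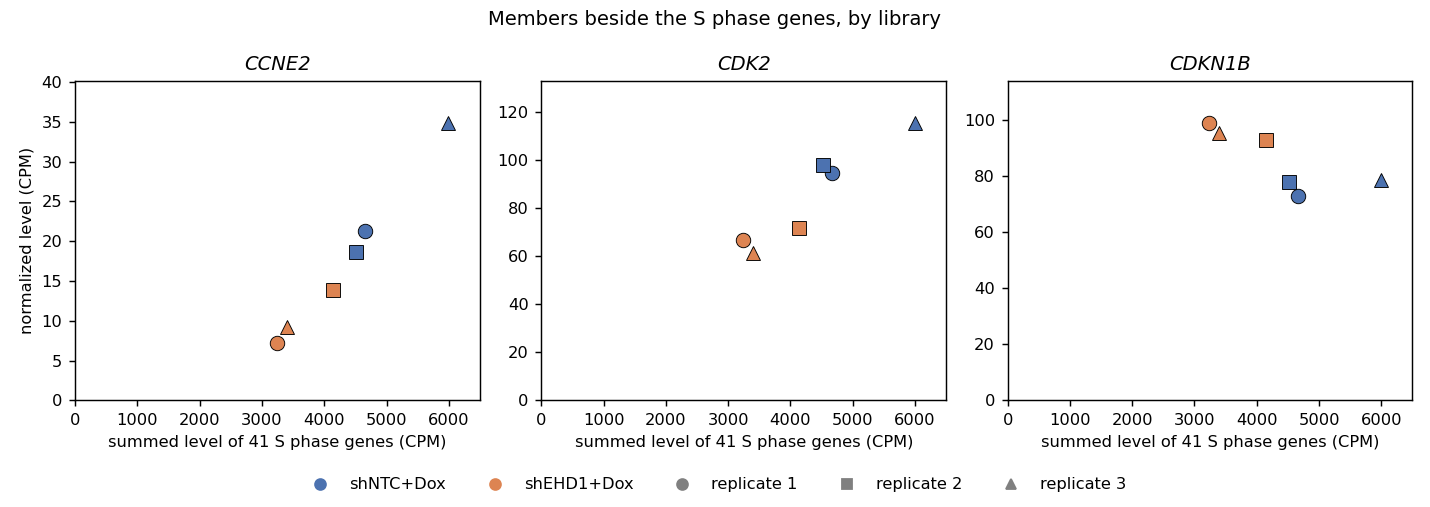
Level of CCNE2, CDK2 and CDKN1B in CPM against the summed CPM of the 41 S phase genes, 1 point a library, with color for the group and shape for the replicate. CCNE2 follows the order of the sum in all 6 libraries, and CDKN1B is at 92.9 CPM or above in the 3 shEHD1+Dox libraries and at 78.4 CPM or below in the 3 shNTC+Dox libraries.

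Genes whose levels over the 6 libraries were most like CCND1, of 9813 with a mean of at least 10 CPM, included MTO1 and COA7, with Pearson's r of 0.997 and 0.996 on log2 CPM. For CDK2 they were RNF10, ATP13A3 and TIMM23B-AGAP6, each at 0.997. An r above 0.99 was reached by 10 and 17 genes. These values rest on 6 libraries in 2 groups and are a description only.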

How the data were processed

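RNA was extracted from 6 TC71 samples, and unstranded TruSeq v2 libraries were sequenced as paired ends. The authors deposited 1 table of raw counts per gene, with 60676 Ensembl gene IDs paired with symbols, and these whole-number counts were used as deposited. The submitters' processing notes name STAR 2.7.3a, DESeq2 and hg38, whereas the paper's methods name hisat2 and StringTie, so the tool that made the counts is not settled. The counts were normalized by TMM and tested with edgeR 4.0.16 (quasi-likelihood, robust) in R 4.3.3. Genes that reached 10 counts in 3 or more libraries were kept, and p-values were adjusted by the Benjamini-Hochberg method over 16785 genes. DESeq2 1.42.0 was an alternative. The code was tested on simulated data. Total counts of 22711235 to 30582187 set the precision of low counts, and the limit given for a count of 0 covers counting error only.

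The named genes were the 10 members, EHD1, genes whose exons overlap a member, and from each list up to 3 of the largest rises and falls at an adjusted p under 0.05 (all genes of lists of at most 6). For CCND1 and CDK2, the 3 genes most alike were also named, apart from an item that is not reported here. DCN was named after its values were seen. The members and lists were chosen with earlier results of these data known. Gene coordinates, lengths and overlaps came from GENCODE 44, which held 99.5% of the IDs. Levels between genes were divided by the canonical transcript length, a choice made after the data were seen, with all exons as the alternative. Ratios used log2(count + 0.5). CCND1 to CCND2 was not computed, since CCND2 had no count. The same replicate numbers did not deviate together (Pearson's r of 0.07, -0.06 and -0.04), so no pairing was used.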

Additional observations from a re-analysis of the deposited data

How the results depend on the processing

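With edgeR, the set gave 6 calls, 5 lower and 1 higher, and 2910 genes were called in all. The DESeq2 Wald test gave 8 calls among the members, 7 lower and 1 higher, and 3622 genes in all. CCND1 and CDK4 passed by that test only narrowly (DESeq2 adjusted p = 0.0492 and 0.0346). Without the filter on low counts 3 members were called lower. With the replicate number as a block, 3 members were called lower and 1766 genes in all, and the replicate numbers shared no deviation beyond the number itself. With a 2-fold change required, 2 members were called, 2 lower and 0 higher, and 473 genes in all. Leaving out each library in turn gave 3 to 6 calls among the members, 2 to 5 lower and 0 to 1 higher, and 1322 to 3616 genes in all. The lowest numbers came without shNTC+Dox replicate 1, shEHD1+Dox replicate 1 and shEHD1+Dox replicate 3, which gave 1713, 1341 and 1322 genes. The fits without a library have fewer samples. CCND3 and CDK2 kept their direction and call in all 13 alternative fits and lost the call where a 2-fold change was required. CDK6 lost its call in 8 of the 13 fits, among them library totals without TMM factors (adjusted p = 0.0527) and the block (0.122), and CCNE2 in 5 of 13, among them the block (0.0521). The fits that kept the call of CCNE2 include its sum with overlapping genes. INTS8 has most of the reads in that sum, so it does not test CCNE2 alone. CCNE1 was not called in any fit. No member changed direction. The scaling by library totals moved the median of all genes by 0.04 on the log2 scale. No ratio or share changed direction with another pseudocount, with counts not divided by length, with all exons as the length (chosen after seeing the data) or without a library. CDK6 had 12 to 62 counts per library, the lowest of the genes tested in the set, so its counting error is the largest among them.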
